A study of Mus musculus with 72 samples.

Results

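Brd3 occupied 11299 promoter sites in both libraries of wild type mouse embryonic fibroblasts (MEFs), and a Brd3 peak was called at 39.8% and 51.3% of them in the respective libraries of cells lacking HMGN1 and HMGN2. The sites were chosen by the WT Brd3 peak calls. They are Brd3 peaks of WT replicate 1 that overlapped a Brd3 peak of WT replicate 2 by at least 1 bp and whose nearest base lay within 1000 bp of a protein-coding transcript start (GENCODE vM1, mm9). They make up 11299 of the 31404 Brd3 peaks of WT replicate 1, among 1156918 peaks in the 64 peak lists of the series. They lie at 7919 genes, or 35.4% of the 22378 annotated protein-coding genes. The WT Brd3 values that selected the sites are therefore given as a description.

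The study used chromatin immunoprecipitation followed by sequencing (ChIP-seq) to compare the binding of 16 antibody targets between Hmgn1+/+n2+/+ (WT) cells and cells with a double knockout, Hmgn1-/- n2-/- (DKO), with 2 libraries per genotype. All mice were of the C57BL/6 strain. MEFs are cultured cells from WT or DKO embryos, without a cell type-specific Cre or transgene in the labels, and no age, sex or number of embryos per culture is given there. The MEF antibodies were directed against Brd3, H3K27ac, H3K27me3, histone H1, P300 and CEBPB, and the labels do not say whether libraries of the same replicate number came from the same culture.

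Brd3 belongs to the bromodomain and extra-terminal (BET) family, whose paired bromodomains bind acetylated lysines of histones and of some transcription factors. BET proteins gather at active promoters and enhancers and assist the release of RNA polymerase II into elongation. HMGN1 and HMGN2 are abundant nucleosome-binding proteins that reduce chromatin compaction, and H3K27ac, acetylation of lysine 27 of histone H3, marks active promoters and enhancers. The comparisons below ask which promoter sites of Brd3 were still called in cells without the 2 HMGN proteins, and what those sites had in common.

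The promoters carried the marks of the labelled cell type. Of 10 fibroblast marker genes, 9 had a Brd3 peak and all 10 had an H3K27ac peak within 1000 bp of a start in both WT libraries. None of 10 B cell marker genes and none of 12 pluripotency marker genes had either in both WT libraries. The 1087 olfactory receptor genes, silent in most tissues, held 0 Brd3 promoter sites. Of the deleted genes, Hmgn1 had sites with summits at +42 and −569 bp from its start. Their strength is given as the −log10 q of the peak caller, which grows with enrichment over input DNA and with depth. The site at +42 bp had −log10 q values of 36.1 and 25.2 in the WT libraries and 17.9 in DKO replicate 1, and it was not called in DKO replicate 2. The −569 bp site was called in all 4 libraries, with −log10 q values of 14.2 and 13.97 in WT and 4.17 and 8.45 in DKO. Hmgn2 had 1 site, at −142 bp, with −log10 q values of 4.05 and 8.35 in WT and no DKO peak. The H3K27ac peak that overlapped the Hmgn2 site had fold enrichments, the ratio of reads to local background at the summit, of 5.34 and 4.23 in WT, and none was called there in either DKO library. A promoter outside the deleted part of a gene does not check the knockout.

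The sequences of 6 sites are shown as examples, read from the mm9 genome around the WT replicate 1 summit. Windows span 200 bases, or the longest unbroken stretch of them outside annotated untranslated exons. Capitals mark CpG dinucleotides. Lrp6 (chr6:134517294-134517493, minus strand, upstream of the start) and Snrpb (chr2:130004854-130004972, minus strand, intron) are shown because they are among the 3 strongest sites of WT cells and were called in both DKO libraries. Cog4, the strongest, had too little sequence outside an untranslated exon. The Cog4 side peak (chr8:113369689-113369888, plus strand, intron) and the Rpl13 side peak (chr8:125626029-125626228, plus strand, intron) head the list of sites called in neither DKO library. Tmf1 (chr6:97129230-97129429, minus strand, upstream of the start) and Rps27 (chr3:90017349-90017537, minus strand, intron) were called in neither and head, by the lower of their WT values, the sites that had a WT replicate 2 peak of their own.
Lrp6: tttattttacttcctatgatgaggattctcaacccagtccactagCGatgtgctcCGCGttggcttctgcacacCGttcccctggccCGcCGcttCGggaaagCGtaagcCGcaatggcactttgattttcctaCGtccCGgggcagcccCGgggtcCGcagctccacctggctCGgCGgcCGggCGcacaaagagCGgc
Snrpb: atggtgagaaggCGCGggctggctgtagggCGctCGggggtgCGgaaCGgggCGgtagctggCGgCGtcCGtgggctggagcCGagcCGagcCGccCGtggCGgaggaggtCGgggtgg
Cog4 side peak: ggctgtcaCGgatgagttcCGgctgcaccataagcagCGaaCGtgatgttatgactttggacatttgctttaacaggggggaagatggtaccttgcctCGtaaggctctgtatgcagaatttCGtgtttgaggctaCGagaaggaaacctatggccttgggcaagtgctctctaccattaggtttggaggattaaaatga
Rpl13 side peak: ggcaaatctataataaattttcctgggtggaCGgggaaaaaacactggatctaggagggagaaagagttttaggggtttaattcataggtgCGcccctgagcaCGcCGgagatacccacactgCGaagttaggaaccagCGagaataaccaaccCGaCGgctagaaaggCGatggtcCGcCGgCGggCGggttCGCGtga
Tmf1: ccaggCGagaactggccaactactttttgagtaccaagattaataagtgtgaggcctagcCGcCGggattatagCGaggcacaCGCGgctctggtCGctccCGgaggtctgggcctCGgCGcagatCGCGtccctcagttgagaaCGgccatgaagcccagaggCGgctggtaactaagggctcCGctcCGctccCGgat
Rps27: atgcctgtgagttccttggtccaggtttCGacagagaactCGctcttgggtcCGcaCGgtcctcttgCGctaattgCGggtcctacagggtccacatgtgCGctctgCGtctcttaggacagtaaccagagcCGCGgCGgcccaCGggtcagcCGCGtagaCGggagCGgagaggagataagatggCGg
The Lrp6 window held 18 CpG, the Snrpb window 16 in 119 bases, the Tmf1 window 17 and the Rps27 window 17 in 189 bases. The side peaks of Cog4 and Rpl13 held 7 and 15. The GC content of the windows ran from 48.0% at the Cog4 side peak and 53.5% at the Rpl13 side peak to 76.5% at Snrpb.

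The whole set of sites was richer in GC and CpG than distal Brd3 peaks. In windows of 200 bp around the summits, the median GC content was 61.5% for the 11299 promoter sites and 49.0% for 11496 reproducible WT peaks farther than 1000 bp from a start, here called distal. The median ratio of observed to expected CpG was 0.71 at promoter sites, 0.22 at distal sites and 0.61 in windows centred on all 45981 protein-coding starts. Sites called in both DKO libraries had a median ratio of 0.75 and a GC content of 63.5%, against 0.67 and 59.0% for sites called in neither. The YY1 motif (AAGATGGC, either strand) was present in 4.04% of sites called in both, 2.05% of sites called in neither and 2.93% of all starts. The GC box (GGGCGG, either strand) was found in 30.5% of sites called in both, 26.3% of those called in neither and 38.5% of starts. The CCAAT box (CCAAT, either strand) went the other way, with 11.7% of sites called in both, 15.7% of those called in neither and 24.5% of starts. So did the TATA motif (TATAAA, either strand), with 2.02%, 3.66% and 6.66%. In all, 9 motifs were searched. The E-box was found in 3.85% of sites called in both and in 3.85% of those called in neither. The ETS motif was found in 1.78% and 1.67%, the NRF1 core in 0.73% and 0.44%, the CRE in 0.08% and 0.28%. AP-1 was found in 2.21% and 3.09%. These shares were not matched for strength or GC content. A letter match describes the sequence and not the binding of a factor.

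DKO cells had fewer Brd3 peaks in all, and a larger share of them lay at promoters. The lists of the WT replicates held 31404 and 33072 peaks, and those of the DKO replicates 8970 and 11549. Promoter peaks numbered 13696 and 13901 in WT against 5277 and 6850 in DKO, or 43.6% and 42.0% against 58.8% and 59.3% of each list. A Brd3 peak lay at a start of 9459 and 9454 genes in the WT libraries and of 4600 and 5757 genes in the DKO libraries. The genotypes did not overlap in any of these quantities, and the exact permutation test (two-sided) gave p = 0.333 for each, the smallest p that 2 against 2 libraries allow. Few DKO promoter peaks were new: 76 of 5277 (1.44%) and 174 of 6850 (2.54%) overlapped no WT peak. Read depth is not given in the lists. The lowest background level that the peak caller used was 1.75 and 1.89 reads in WT and 1.24 and 1.54 in DKO, and the part of this difference in the shorter DKO lists was not tested directly. In cultures of many cells, Brd3 binding in fewer cells and weaker binding in each cell cannot be told apart.

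WT Brd3 peaks at promoters had a DKO peak more often than WT peaks elsewhere. A DKO replicate 1 peak overlapped 4496 of the 11299 promoter sites (39.8%), against 30.6% of all 22795 WT peaks found in both WT libraries. A DKO replicate 2 peak overlapped 5793 (51.3%), against 39.5% of all. The mean over the DKO libraries was 45.5% ± 8.12 (SD, n = 2). Sites called in both DKO libraries numbered 3714 (32.9%, against 24.2% of all reproducible peaks), 2861 were called in one, and 4724 were called in neither (41.8%, against 54.2%). Distal sites were called at 21.5% and 27.9%. Weighted to the strength of the promoter sites, as described next, distal sites reached 37.3% and 44.9%, which removed most of the gap to promoters. Of the 7919 genes, 4169 (52.6%) and 5162 (65.2%) had a DKO peak at a start, and 2222 (28.1%) had none in either library.

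The WT replicates themselves did not share all promoter peaks. WT replicate 2 held 82.5% of the 13696 promoter peaks of WT replicate 1, from 56.5% of the weakest quintile to 99.7% of the strongest. When each list was shortened to its 8970 strongest peaks, 76.0% of the WT replicate 1 promoter peaks were found in WT replicate 2, 60.7% in DKO replicate 1 and 66.3% in DKO replicate 2. Of the WT replicate 2 promoter peaks, 78.4% were found in WT replicate 1, and 61.5% and 66.4% in the DKO libraries. The shares found in DKO were below those found in the other WT library, by less than in the full lists. The promoter peaks of DKO replicate 1 were found at 78.0% and 76.3% in WT and at 71.2% in DKO replicate 2, and those of DKO replicate 2 at 76.0% and 73.6% in WT and at 63.5% in DKO replicate 1. At this list length a DKO promoter peak was thus found in a WT list more often than in the other DKO list.

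Strength in WT ordered the sites. Strength is the mean of the −log10 q values that the peak caller gave in the WT libraries. Over all sites the WT replicate 1 value ran from 2 to 239.9 with a median of 12.5. Among the weakest quintile, with means of 2.43 to 7.91, DKO peaks overlapped 8.23% and 16.9%. The next quintiles gave 17.2% and 31.2%, then 33.8% and 47.7%, then 55.4% and 69.2%. The strongest quintile, with means from 23.1 to 226.7, was overlapped at 84.4% and 91.4%. The mean share of the strongest quintile exceeded that of the weakest by 75.3 percentage points ± 1.16 (SD, n = 2 DKO libraries). In the strongest decile 93.0% and 96.5% were called, and 22 of its 1129 sites had no peak in either DKO library.

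The order by strength was not particular to promoters. Distal sites in the same classes of strength were called at 5.25% and 8.59% in the weakest, at 29.2% and 39.8% in the middle and at 84.0% and 89.4% in the strongest. In the weak classes the promoter sites lay above the distal sites of equal strength in both DKO libraries, and in the strong classes the values lay close together. Among the 3714 promoter sites called in both DKO libraries, mean WT and mean DKO −log10 q correlated across sites with a Spearman's rho of 0.69, and the WT replicates across all sites with 0.68. Sites of a library share its depth and background and are not replicates, so no p is given.

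**Figure D1:**
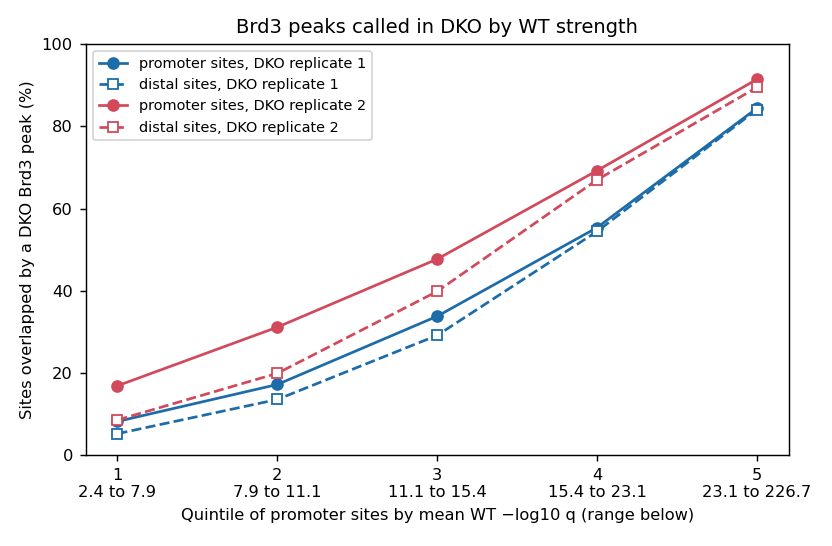
Share of Brd3 sites overlapped by a Brd3 peak of each DKO library (y axis, percent) by quintile of promoter sites ranked by mean WT −log10 q (x axis, range of each quintile below). Filled circles and solid lines are promoter sites, and open squares and dashed lines are distal sites placed in the same ranges. Promoter sites rise from 8.23% and 16.9% in the weakest quintile to 84.4% and 91.4% in the strongest.

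Position, width and base composition went with DKO calls to a lesser degree once strength was considered. Summits had a median offset of +98 bp from the nearest start, and 64.3% lay at or downstream of it. Sites with summits 0 to 249 bp downstream, 4726 in number, were called at 45.01% and 57.2%, against 19.5% and 33.3% of the 411 sites with summits 750 to 999 bp downstream. The shares did not fall steadily with distance: the 179 sites at 1000 to 1249 bp downstream were called at 27.4% and 43.6%, and the 37 at 1250 to 1499 bp at 56.8% and 70.3%. The 4469 peaks that held a start within their interval were called at 54.6% and 66.0%, and the 6830 that did not at 30.1% and 41.6%. Members of the same quintiles of strength were called at 51.1% and 62.2% for the former group and at 32.4% and 44.1% for the latter. The shares thus lay within 3.79 points of sites of equal strength. Peaks that held a start were also wider, with a median of 597 bp against 344 bp, and position was not separated from width. The quintile of sites poorest in CpG was called at 31.2% and 38.7% and the richest at 44.3% and 58.6%. Sites of equal strength gave 31.7% and 43.4% for the former and 44.0% and 55.4% for the latter. The 230 sites on chromosome X were called at 29.1% and 37.8% and sites of equal strength at 28.3% and 40.2%.

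Brd3 width followed strength, with a Spearman's rho of 0.54 across the 11299 sites. Mean DKO shares rose from 18.4% ± 7.04 in the narrowest quintile (170 to 247 bp) to 79.9% ± 7.29 in the widest (734 to 7939 bp; SD, n = 2). The widest quintile stood 12.6 and 12.4 points above sites of the same strength. A wider peak is also more easily overlapped. The 5 widest sites, singled out after their values were seen, lay at Meis1 (7939 bp), Prrx1 (5932 bp), Wisp1 (5298 bp), Wnt5a (5102 bp) and Hoxa7 (4375 bp), genes of mesenchymal patterning and Wnt signalling. All 5 were called in both DKO libraries. Meis1 had −log10 q values of 42.5 and 57.7 in WT and 22.0 and 24.2 in DKO.

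The strongest site of a gene was called more often than its other sites. Of the 7919 genes, 5292 had 1 site, 2057 had 2, 447 had 3 and 123 had 4 or more. The strongest site of each gene, single sites included, was called at 47.3% and 58.4%, against 22.2% and 34.6% of the 3380 others. Sites of equal strength gave 45.8% and 57.2% for the former and 25.8% and 37.5% for the latter, leaving small remaining differences.

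The limit of 1000 bp fell where Brd3 peaks were weak. The 79 reproducible peaks lying 951 to 1000 bp from a start were called at 20.3% and 27.8%, and the 64 peaks lying 1001 to 1050 bp away, outside the set, at 10.9% and 25%.

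Brd3 promoter sites with wider H3K27ac regions were called more often in DKO. WT H3K27ac peaks of both libraries were joined where they overlapped, and 11200 of the 11299 sites lay on such a region. The 99 sites without WT H3K27ac were called at 6.06% and 9.09%, against 18.5% and 29.3% of sites of the same strength. In the quintile with the narrowest regions (160 to 674 bp) 27.5% and 35.5% were called. The following quintiles gave 37.8% and 48.0%, then 42.3% and 54.7%, then 46.1% and 59.5%. In the quintile with the widest regions (2138 to 17084 bp) the shares were 46.8% and 60.5%. The widest exceeded the narrowest by 22.2 points ± 4.04 (SD, n = 2). Brd3 peaks were also wider on wider H3K27ac regions, with a median of 312 bp in the narrowest quintile and 565 bp in the widest. A wider Brd3 peak is more easily overlapped, and the comparison was not matched for Brd3 width.

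H3K27ac width and Brd3 strength were weakly related, with a Spearman's rho of 0.14 across 11200 sites. Compared within quintiles of strength and then averaged, the widest quintile exceeded the narrowest by 12.3 points. In the weakest quintile of Brd3 the DKO libraries differed in direction: the share with narrow and wide H3K27ac was 7.59% and 6.08% in DKO replicate 1 and 12.4% and 22.5% in DKO replicate 2, with means of 9.98% and 14.3%. In the middle quintile the means were 31.3% and 47.3%, and in the strongest 79.0% and 91.0%. The difference depended on how a call was counted: when a DKO peak had to cover 50% of the WT peak it was −1.41 points, and when H3K27ac peaks within 1000 bp were joined it was 9.15 points. The widest H3K27ac regions, singled out after their values were seen, spanned 17084 bp at Hoxb5 and Hoxb6, 17043 bp at Fhl2 and 15414 bp at Col1a1. Col1a1, which encodes a chain of type I collagen, had Brd3 −log10 q values of 9.40 and 12.95 in WT and 9.51 and 9.86 in DKO. Hoxb5, with 6.98 and 12.3 in WT, had no peak in DKO.

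**Figure D2:**
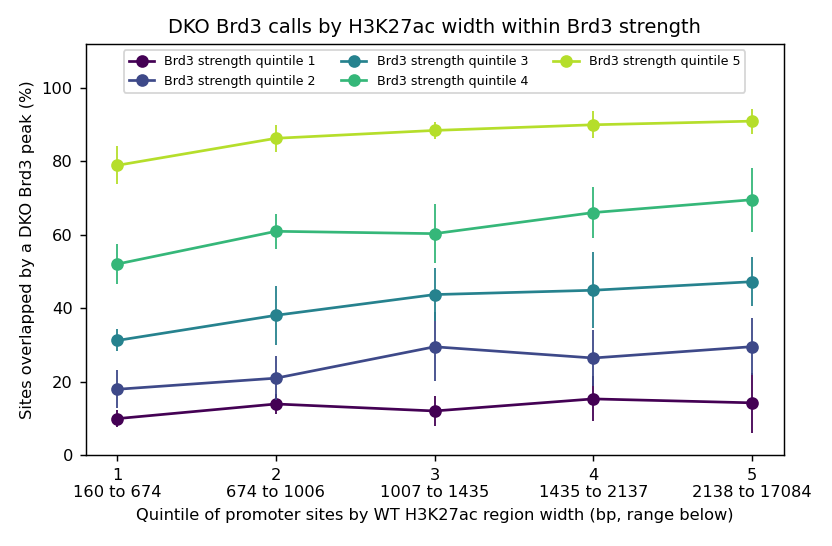
Share of promoter sites overlapped by a DKO Brd3 peak (y axis, percent; points are the mean of the DKO libraries and vertical lines join the values of the libraries) by quintile of WT H3K27ac region width (x axis, bp range below), with 1 line per quintile of WT Brd3 strength. The lines for strength lie apart from 9.98% to 15.4% in the weakest to 79.0% to 91.0% in the strongest quintile, and each mean is higher in the widest than in the narrowest H3K27ac quintile, although DKO replicate 1 alone is not in the weakest strength quintile (6.08% against 7.59%).

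Apart from H3K27ac, the other MEF antibodies marked few of the sites. H3K27me3 and histone H1 peaks overlapped 0 of the 11299 sites in all 8 lists, which held 117 to 553 H3K27me3 and 281 to 315 histone H1 peaks in all. H3K27ac peaks overlapped 98.3% to 98.7% of the sites in the 4 libraries, against 93.5% to 94.3% of distal Brd3 sites. P300, an acetyltransferase of H3K27, overlapped 1.79% and 1.02% of the sites in WT and 0.56% and 0.77% in DKO, against 20.4% and 15.8% and then 10.2% and 10.8% of distal sites. CEBPB, a leucine zipper transcription factor, overlapped 4.49% and 4.51% in WT and 1.54% and 1.68% in DKO, against 9.55% and 9.66% and then 3.96% and 4.24% of distal sites. Both had shorter lists in DKO (7323 and 5398 P300 peaks in WT against 2974 and 3325, and 14197 and 14692 CEBPB peaks against 4886 and 5328). The 231 Brd3 sites with P300 in a WT library were called at 60.6% and 69.3%, against 53.9% and 64.7% of sites of the same strength. The 441 sites with CEBPB in both WT libraries were called at 52.8% and 60.3%, against 45.4% and 57.1%.

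Gene classes differed widely in how many of their Brd3 sites were called in DKO. Of 17 classes with at least 10 sites, 10 were above all promoter sites in both DKO libraries, and 7 were above sites of the same quintiles of strength. No test of a class was made, and the shares describe these libraries. The highest shares belonged to genes of protein production and turnover. The proteasome genes, encoding the protease that degrades ubiquitylated proteins, had 38 sites called at 65.8% and 81.6%. Ribosomal protein genes had 107 sites, a median strength of 47.8 and shares of 69.2% and 72.9%. Sites of the same quintiles of strength gave 66.5% and 76.2% for proteasome genes and 68.5% and 77.0% for ribosomal protein genes. Neither class lay clearly off these shares in both libraries. The strongest quintile spans 23.1 to 226.7, with a median of 30.8, so the match is coarse for ribosomal protein genes. In the strongest decile of all promoter sites 93.0% and 96.5% were called. Aminoacyl-tRNA synthetase genes, which charge tRNAs, had 37 sites at 62.2% and 70.3%, against 55.4% and 66.4% of sites of the same strength. Translation initiation factor genes had 68 sites at 54.4% and 67.6%, against 51.0% and 62.3%. Oxidative phosphorylation genes had 71 sites at 53.5% and 60.6%, against 48.6% and 59.8%, and splicing factor genes had 59 sites at 47.5% and 62.7%, against 53.0% and 63.7%.

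Within these classes single sites went different ways. Rpl26, of the large ribosomal subunit, had −log10 q values of 142 and 181 in WT and 49.4 and 69.3 in DKO. Psmd12, of the proteasome lid, had 64.3 and 58.1 in WT and 15 and 9.22 in DKO, and Psmd9, a proteasome assembly chaperone, with 21.4 and 13.4 in WT, was called in neither DKO library. Farsa, a subunit of phenylalanyl-tRNA synthetase, had 69.8 and 52.8 in WT and 15.7 and 13.8 in DKO. Rpl26, Psmd12 and Farsa were chosen as the strongest of their classes in WT, so their lower DKO values are a description. Ndufc2, a subunit of respiratory complex I, had 79.2 and 99.1 in WT and 37.9 and 46.4 in DKO. Atp5h, of the ATP synthase, had 24.1 and 22.8 in WT and no DKO peak. Both WT values of the Atp5h site lay above the median strength of its class, 16.3.

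Classes of fibroblast identity spread to both sides of all promoter sites. The 60 sites of TGF-beta and YAP response genes, among them cytoskeletal and matrix genes, were called at 53.3% and 63.3%, against 43.4% and 54.5% of sites of the same strength. Tpm4, a tropomyosin, had −log10 q values of 76.6 and 79.8 in WT and 20.6 and 37.5 in DKO, and Bhlhe40, a transcriptional repressor, had 24.2 and 15.9 in WT and no DKO peak. Extracellular matrix genes had 75 sites at 38.7% and 52.0%, close to 38.8% and 50.4% of sites of the same strength. Mesenchymal transcription factor genes also had 75 sites, at 38.7% and 60.0%, against 36.4% and 47.8%. Prrx1, a homeobox factor of limb mesenchyme, had 36.5 and 47.5 in WT and 21.9 and 23.8 in DKO. Tbx15, a T-box factor, had 15.1 and 18.4 in WT and no DKO peak at that site. Hox genes, which set position along the body axis, had 48 sites at 37.5% and 45.8%, against 31.5% and 43.3%. Fibroblast marker genes had 20 sites at 30.0% and 35.0%, against 29.5% and 42.0%. Vim, encoding vimentin, had 20.9 and 31.3 in WT and 11.2 and 5.38 in DKO, and Col3a1, a fibrillar collagen gene, had 14.1 and 17.2 in WT and no DKO peak at that site.

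By the mean of the DKO libraries, histone genes (10%) and immediate early genes (31.4%) had the lowest shares, with fibroblast marker genes next (32.5%). In DKO replicate 2 alone the fibroblast marker genes lay below the immediate early genes. The 51 sites of immediate early genes, induced within minutes of growth factor signals, were called at 19.6% in DKO replicate 1 and 43.1% in DKO replicate 2. Sites of the same strength gave 29.4% and 41.2%. Dusp6, an ERK phosphatase, had 34.4 and 39.0 in WT and 28.4 and 17.97 in DKO, and Zfp36, which destabilises mRNAs, had 29.3 and 29.2 in WT and no DKO peak. Replication-dependent histone genes had 15 sites, of which 1 and 2 were called (6.67% and 13.3%), against 19.1% and 29.9% of sites of the same strength. Hist1h2ab had 14.9 and 21.3 in WT and 5.71 and 13.1 in DKO, and Hist2h2ab had 11.4 and 19.5 in WT and no DKO peak at that site. Another Hist2h2ab site, with 5.08 and 6.06 in WT, had 9.21 in DKO replicate 2. Histone genes have near-identical copies, and the lists do not say how reads were shared among them.

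The remaining classes, except the high mobility group genes, lay above all promoter sites in both DKO libraries. Cell cycle genes had 67 sites at 40.3% and 53.7%, against 37.7% and 48.7% of sites of the same strength. Rbl1, the pocket protein p107, had 66.0 and 57.0 in WT and 10.9 and 12.1 in DKO, and Cdc20, an activator of the anaphase-promoting complex, had 13.6 and 25.4 in WT and no DKO peak. Acetylation reader, writer and eraser genes had 44 sites at 40.9% and 56.8%, against 46.6% and 58.0%. Among them Brd2, a BET protein, had 58.8 and 51.7 in WT and 29.3 and 24.0 in DKO. The class as listed also held Aff4, a scaffold of the super elongation complex rather than a reader, writer or eraser itself. Aff4 had 18 and 16.9 in WT and no DKO peak at that site. Zinc finger protein genes had 294 sites at 41.8% and 52.4%, against 43.0% and 54.6%. High mobility group genes had 10 sites, 50% of them called in each DKO library, against 41.5% and 52.9% of sites of the same strength. Hmga2 had 33.6 and 33.5 in WT and 17.1 and 26.1 in DKO, and Hmgb2 had 16.8 and 21.1 in WT and no DKO peak at that site.

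**Figure D3:**
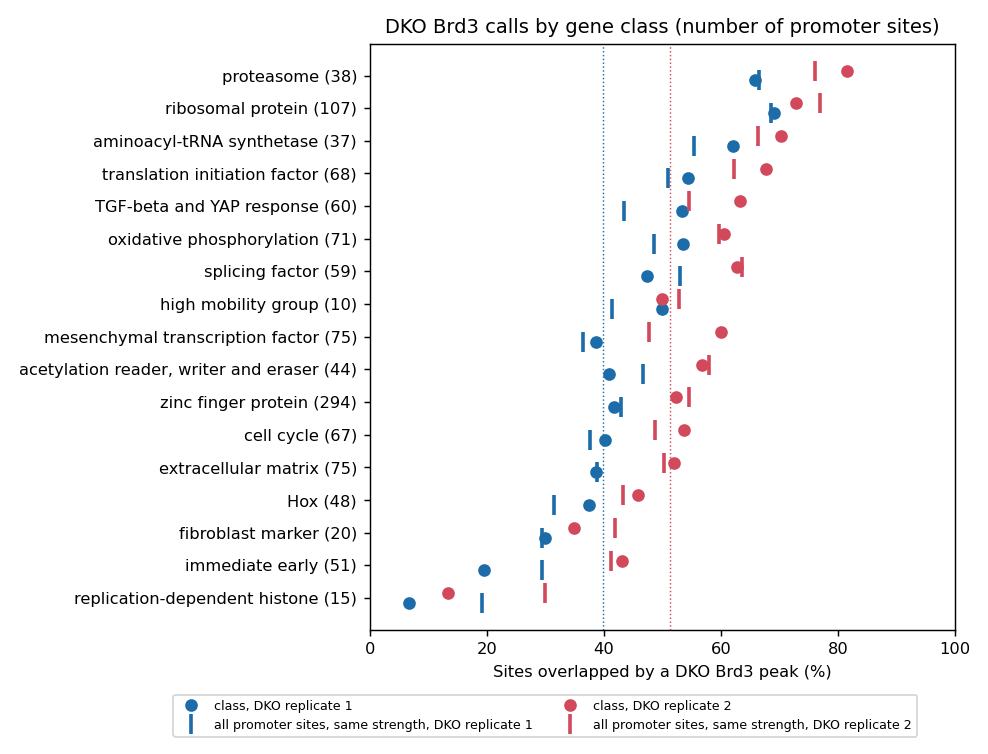
Share of the promoter sites of each gene class that a Brd3 peak of DKO replicate 1 or 2 overlapped (circles, percent), beside the share among all promoter sites of the same quintiles of strength (vertical ticks). Dotted lines mark all promoter sites (39.8% and 51.3%), and the number of sites is in parentheses. Proteasome and ribosomal protein genes lie highest and histone genes lowest.

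The 10 strongest sites called in both DKO libraries lay at Cog4, Lrp6, Snrpb, Tatdn3, Rpl26, Rpl4, Eef1g, Rpl7, Anp32e and Serbp1. They include ribosomal and translation genes and 1 spliceosome gene. Cog4, of a tethering complex of the Golgi, had −log10 q values of 239.9 and 213 in WT and 119 and 122 in DKO. Lrp6, a co-receptor for Wnt ligands, had 190.1 and 201 in WT and 95.1 and 96.0 in DKO. Snrpb, a core protein of spliceosomal particles, had 145 and 200.1 in WT and 56.7 and 67.0 in DKO. These sites were ranked by their WT values, so DKO values below them are a description. The −log10 q grows with depth as well as with enrichment, so the fold enrichments serve for comparison. Cog4 had fold enrichments of 46.4 and 40.2 in WT and 33.3 and 31.0 in DKO, Lrp6 had 35.8 and 35.3 against 30.4 and 28.1, and Anp32e, a chaperone of histone H2A.Z, had 32.1 and 34.5 against 18.8 and 17.2.

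Most of the strongest sites called in neither DKO library were side peaks. By mean WT strength the first 10 lay at Cog4, Rpl13, Ece2, Hnrnpk, Eif5, Mtg1, Rps14, Rbm33, Rbm39 and Tmf1. At 9 of them, all except Tmf1, the WT replicate 2 peak was shared with another promoter site, so its value belonged to a wider peak. The Cog4 side peak, at −711 bp, had −log10 q of 5.50 in WT replicate 1 and took 213 from the shared peak of WT replicate 2. Such sharing involved 1428 of the 11299 sites (12.6%). A list restricted to sites with their own WT replicate 2 peak and ordered by the lower WT value, added after the data were seen, held Tmf1, Rps27, Obfc2a, Pdxdc1, Zfp563, Zfp36, Fnbp4, Blzf1, Mdh2 and Lrrc1. Tmf1, a Golgi protein gene, had −log10 q of 41.8 and 40.4 in WT. Rps27, of the small ribosomal subunit, had 33.4 and 32.7 at that site, with a DKO replicate 1 peak of 3.404 elsewhere within 1000 bp of a start, and Mdh2, the mitochondrial malate dehydrogenase, had 31.8 and 28.3. All 10 had −log10 q of at least 27.1 in both WT libraries and none in DKO at those sites.

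H3K27ac remained at those 10 promoters. The joined H3K27ac site at Tmf1 had fold enrichments of 22.6 and 26.5 in WT and 29.8 and 29.3 in DKO. The H3K27ac peaks that overlapped the Tmf1 Brd3 site itself had 13.6 and 10.9 in WT and 29.8 and 29.3 in DKO, so the size of the difference depended on which peaks were compared. The Rps27 promoter had 34.3 and 34.1 in WT and 28.2 and 23.0 in DKO. The Mdh2 promoter had 29.3 and 28.96 in WT and 22.9 and 22.6 in DKO. For Tmf1, Rps27 and Mdh2 limma gave adjusted p = 0.302, 0.0823 and 0.161. Of the 10 promoters, 0 passed the threshold with limma, and 4 had an unadjusted p below 0.05, all with lower values in DKO at the joined sites. Among these was Zfp36, with 39.5 and 36.7 in WT and 21.6 and 34.8 in DKO. The H3K27ac peaks that overlapped the Zfp36 Brd3 site itself had 17.3 and 16.1 in WT, below both DKO values, so the direction there depended on the peaks compared. Over all H3K27ac sites tested, 2367 of 42234 were called lower and 6695 were lower at an unadjusted p below 0.05, so 0 calls among 10 sites is no result about them.

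**Figure D4:**
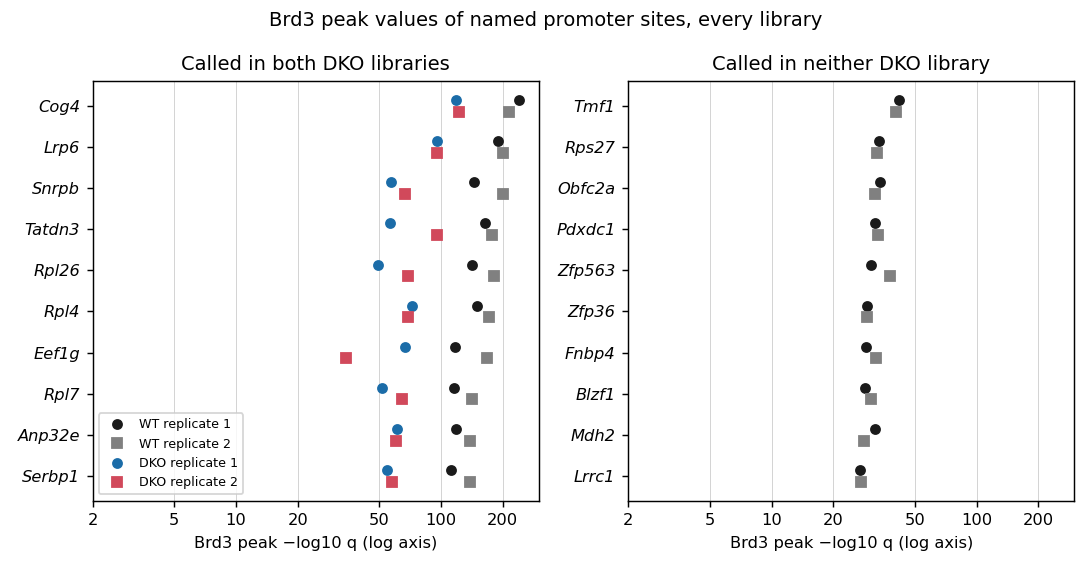
Brd3 peak −log10 q (x axis, log scale) in each WT and DKO library at the 10 strongest promoter sites called in both DKO libraries (left) and at 10 sites called in neither that had their own WT replicate 2 peak (right). Each point is 1 library, and a library without a peak has no point. On the left every DKO point lies below both WT points of its gene, at sites chosen for their high WT values, and on the right no DKO point is present because the sites were chosen so.

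At most sites called in all 4 libraries Brd3 fold enrichment was lower in DKO, at promoters and elsewhere alike. Overlapping Brd3 peaks of the 4 libraries were joined into sites, and log2 fold enrichment was compared with limma over the 5422 sites called in all 4, of which 3687 held 4105 of the promoter members. The median log2 change, DKO minus WT, was −0.39 over all sites and −0.40 over promoter sites. At an adjusted p below 0.05, 799 promoter sites were lower (21.7%, against 20.6% of all sites) and 13 were higher (0.353%, against 0.387%). The promoter shares were near those of all sites and so are no result about promoters. Of the promoter calls, 98.4% were lower. When each library was centred on its median, 32 were lower (0.868%, against 0.664% of all sites) and 30 higher (0.814%, against 0.83%). Of these calls, 51.6% were lower. Lower promoter sites numbered 316 by pileup over the lowest background (8.57%, against 8.41% of all sites). With 1 library left out, the median log2 change of promoter sites ran from −0.43 to −0.35. A member weak in WT entered only if DKO peaks were called at it, which held for 81 sites in the weakest quintile and 1815 in the strongest. The median log2 change was 0.41 in the weakest quintile, 0.00 in the next and −0.59 in the strongest. The quintiles were set by WT Brd3 values and the weak sites had to be called in both DKO libraries, so these medians are a description.

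Zfp11, a zinc finger gene, fell from fold enrichments of 22.5 and 20.1 in WT to 4.86 and 6.68 in DKO, a log2 change of −1.90 ± 0.24 (SE; limma adjusted p = 0.00122). Smndc1, a splicing factor gene, fell from 14.2 and 11.4 to 4.62 and 3.06, and Yars, the tyrosyl-tRNA synthetase gene, fell from 16.9 and 16.3 to 5.11 and 4.84. These were the 3 largest decreases among the sites that passed, so the lack of overlap between genotypes at them is a description. Rpl13, Rps23 and Cog4 had the smallest decreases that passed, with log2 changes of −0.56, −0.55 and −0.43. Ppp2r5b, a regulatory subunit of protein phosphatase 2A, rose from 2.94 and 2.97 to 8.10 and 5.71, a log2 change of 1.204 ± 0.27 (adjusted p = 0.00997, limma). Slc7a1, a transporter of cationic amino acids, rose from 6.60 and 3.995 to 10.6 and 11.7. Bnip3, a hypoxia-induced gene of mitophagy, rose from 4.76 and 4.80 to 9.13 and 10.9. Psma2 and Psmc6, of the proteasome, and Smc3, of cohesin, had the smallest increases that passed, with log2 changes of 0.75, 0.72 and 0.72. After centring, the 6 increases and the 3 largest decreases still passed, whereas Rpl13, Rps23 and Cog4 had log2 changes of −0.15, −0.14 and −0.01 and did not.

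The gene classes held between 1 and 102 Brd3 sites called in all 4 libraries. Against 20.6% of all sites, cell cycle genes had 11 of 21 sites lower (52.4%), ribosomal protein genes 30 of 68 (44.1%) and aminoacyl-tRNA synthetase genes 8 of 20 (40%). In the strongest quintile of sites 38.0% were lower, and ribosomal protein genes had a median strength of 47.8, within that quintile. Zinc finger protein genes, with 26 of 102 (25.5%), lay near the share of all sites. None of these 4 classes had a site called higher by limma, and at an unadjusted p below 0.05 ribosomal protein genes had 2 and the others 0. Proteasome genes had 9 of 25 lower (36%) and 2 higher. The median log2 changes of the 5 classes were −0.80, −0.56, −0.56, −0.47 and −0.46, against −0.39 over all sites. After centring, cell cycle, aminoacyl-tRNA synthetase and zinc finger protein genes had 1 lower site each, ribosomal protein genes had 3 lower and 1 higher, and proteasome genes had 2 of each, while 36 of all 5422 sites (0.664%) were lower and 45 (0.83%) higher. Hox genes had 1 of 15 lower and the acetylation genes 1 of 16. The strongest sites of their classes in WT, chosen by the WT values, had log2 changes of −1.73 at Psmd12, −1.69 at Rbl1, −1.31 at Farsa, −0.995 at Tpm4, −0.43 at Brd2, −0.40 at Prrx1 and −0.14 at Hmga2, given as a description.

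H3K27ac, which the choice of sites did not use, was lower at a small share of these promoters. Of 42234 H3K27ac sites called in all 4 libraries, 9337 held 11032 of the Brd3 promoter members. H3K27ac was lower at 787 of them (8.43%, against 5.6% of all sites) and higher at 265 (2.84%, against 2.79%). The excess of lower calls over all sites was not found when fold enrichment was replaced by pileup over the lowest background (1.32% of promoter sites against 1.92% of all), nor without a variance trend (3.44% against 3.47%). The 787 lower sites numbered 123 and 321 in these settings. The 265 higher sites numbered 42 (0.45%, against 1.35% of all) and 89 (0.953%, against 1.68%). With 1 library left out, the median log2 change of promoter sites ran from −0.14 to −0.09. The median log2 change was −0.11 at these sites and −0.08 over all. Lower calls made up 74.8% of the member calls, and 56.7% when libraries were centred on their medians. After centring, 502 were lower (5.38%, against 3.62% of all sites) and 384 higher (4.11%, against 3.89%). Calls in both directions were more frequent where Brd3 was called in DKO. H3K27ac was lower at 9.43% and higher at 3.71% of sites where Brd3 was called in both DKO libraries, at 8.30% and 2.92% where it was called in one and at 7.38% and 1.77% where it was called in neither, with median log2 changes of −0.10, −0.11 and −0.14. In the same order the median WT replicate 1 fold enrichment of H3K27ac was 20.2, 16.2 and 12.5. The median SE of the log2 change was 0.188, 0.207 and 0.226, smallest where calls were most frequent. The median change was smallest in size there too, and the difference between these groups was not tested.

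**Figure D5:**
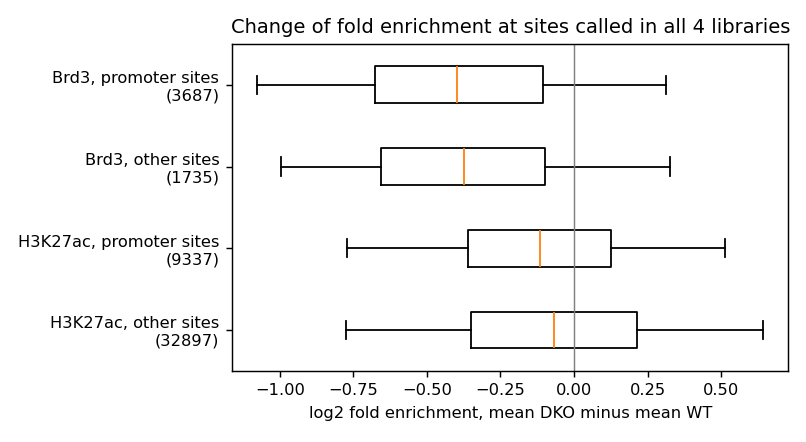
Log2 change of fold enrichment, mean DKO minus mean WT (x axis), at Brd3 sites and H3K27ac sites called in all 4 libraries, split into sites with a Brd3 promoter member and other sites (number in parentheses). Boxes show the quartiles and the median, and whiskers the 5th and 95th percentiles of sites. The Brd3 medians are −0.40 and −0.37 and the H3K27ac medians −0.11 and −0.07.

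Ppp2r5c, another regulatory subunit of protein phosphatase 2A, had H3K27ac fold enrichments of 25.1 and 25.8 in WT and 6.998 and 9.26 in DKO, a log2 change of −1.66 ± 0.21 (SE; limma adjusted p = 9.53e-05). Echdc2 fell from 10.9 and 9.27 to 2.95 and 3.44, and Znhit3 from 6.34 and 8.93 to 2.49 and 2.57. C1qtnf5 rose from 7.12 and 8.85 to 21.5 and 19.5, a log2 change of 1.37 ± 0.22 (adjusted p = 0.00056, limma). Fam178a rose from 7.76 and 6.18 to 19.3 and 14.7, and Oxa1l, an insertase of the mitochondrial inner membrane, rose from 17.2 and 10.7 to 37.6 and 28.6. These 6 sites were chosen as the largest changes that passed, so the lack of overlap between genotypes at them is a description. The smallest changes that passed were log2 changes of −0.45, −0.44 and −0.43 at Sart3, Eif3b and 0610009L18Rik and of 0.44, 0.43 and 0.41 at Pprc1, Zfp91 and Tmem131. After centring, the decreases at Sart3, Eif3b and 0610009L18Rik no longer passed, and the other 9 named changes did.

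Among the classes, acetylation reader, writer and eraser genes had H3K27ac lower at 8 of 34 sites (23.5%) and translation initiation factor genes at 12 of 61 (19.7%), against 8.43% of all promoter sites and 5.6% of all H3K27ac sites. Neither had a site called higher by limma, with 2 in each at an unadjusted p below 0.05. Their median log2 changes were −0.25 and −0.16, and after centring 5 and 7 sites were lower and 0 and 1 higher, against 3.62% lower and 3.89% higher of all H3K27ac sites. Ribosomal protein genes had 8 lower and 8 higher of 96 (8.33% each), and extracellular matrix genes had 1 lower and 2 higher of 54. H3K27ac was also read at the strongest site of each class that was called in neither DKO library. Those at Tbx15, Cdc20 and Hoxc6 passed the threshold with limma, all lower in DKO, and the others did not. Among the others the log2 changes ran from −0.52 at Nars to 0.43 at Psmd9. The Tbx15 promoter fell from H3K27ac fold enrichments of 31.3 and 21.2 to 10.4 and 10.2, a log2 change of −1.33 ± 0.21 (adjusted p = 0.000496, limma). The Cdc20 promoter fell from 16.9 and 17.7 to 7.87 and 9.30, with a log2 change of −1.02 ± 0.22 (adjusted p = 0.00453, limma). At Hoxc6 the values were 35.4 and 44.2 in WT and 31.2 and 21.7 in DKO (log2 change −0.60 ± 0.16, adjusted p = 0.0224, limma). The joined H3K27ac site at Hoxc6 also held the strongest Hoxc6 Brd3 site, which was called in both DKO libraries. The Hoxc6 change is therefore not particular to a site without a DKO peak. At the Hmgn1 site nearest its start H3K27ac was 19.5 and 21.3 in WT and 25.6 and 27.3 in DKO, with an adjusted p of 0.162 from limma.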

How the data were processed

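Brd3 and H3K27ac ChIP-seq peaks of MEFs were taken from the peak lists that the authors deposited, 1 per library, in 2 WT and 2 DKO libraries per antibody. Per the paper's methods and the submitters' processing notes, the authors trimmed reads with CutAdapt (1.16), aligned them to mm9 with BWA, removed blacklisted reads and called peaks against input with MACS2 (2.1.1.20160309). The deposited lists give for each peak a fold enrichment, which is a ratio of pileup to local background with 1 added to each, a −log10 p-value and q-value, a score equal to 10 times the −log10 q, and a summit. No list held a −log10 q below 2. The lists of the other antibodies were used for overlap only, and input libraries were not analysed here.

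A site counted as called in DKO when a DKO peak overlapped the WT replicate 1 peak by at least 1 bp. Gene starts and sequences came from GENCODE vM1 and the mm9 genome. Sites of equal strength are the members of the same quintiles, weighted to the group compared. Shares are given for each DKO library, with the mean and SD over libraries, since sites are not replicates. For fold enrichment, overlapping peaks of the 4 libraries were joined, the highest peak of each library was taken, and log2 values of sites called in all 4 were compared with limma (3.58.1; trended eBayes, genotype as the only term, two-sided, Benjamini-Hochberg adjustment over all sites, threshold 0.05). The study compared read counts, which peak lists do not hold. Read depth is unknown, and pileups solved from p-values and fold enrichment served only as alternatives. The scripts were tested on simulated data. P-values measure the spread between libraries that the labels call replicates.

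Named genes are the 10 strongest sites called in both and in neither DKO library, the 3 largest and 3 smallest changes that passed in each direction, and the strongest site and strongest site called in neither of each class. The sites, gene classes and tests were chosen with earlier results of these data known. Alternatives covered the distance, the overlap, the threshold, the list length, the strength measure, the H3K27ac width, scaling, variance model, the replicate block and leaving out each library.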

Additional observations from a re-analysis of the deposited data

How the results depend on the processing

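The mean share of sites called in DKO (45.5%) ranged from 38.4% to 51.3% when 1 library was left out. It was 21.3% when a DKO peak had to cover 50% of the WT peak, 72.9% in lists of equal length and 58.9% over genes. A projection of WT pileups onto the DKO backgrounds gave 96.3%, but it also projected 99.96% for WT replicate 2, where 82.5% were found, so it is not a usable ceiling. The difference between the strongest and weakest quintile (75.3 points; 74.5 to 76.1 without 1 library) was 33.2 with 50% coverage, 47.5 in lists of equal length, 67.5 by fold enrichment, 68.4 by WT replicate 2 alone, 84.3 in deciles and 77.2 among sites with their own WT replicate 2 peak, a choice made after seeing the data. The H3K27ac width difference (22.2; 19.3 to 25.04 without 1 library) was 27.3 at 500 bp, 17.1 at 2000 bp, 13.8 when the DKO peak had to hold the WT summit, 9.15 with H3K27ac peaks joined within 1000 bp, 12.3 within quintiles of strength and −1.41, reversed, with 50% coverage. The number of classes above all sites (10) was 7 to 12 under its alternatives and 9 to 12 without 1 library. Lower Brd3 sites (799) numbered 32 after centring, 316 by solved pileup and 480 to 591 without 1 library, lowest without DKO replicate 2. Lower H3K27ac sites (787) numbered 502 after centring, 123 by solved pileup, 321 without a variance trend and 469 to 633 without 1 library, lowest without WT replicate 1. Higher H3K27ac sites (265) numbered 42 by solved pileup, 89 without a trend and 139 to 262 without 1 library, lowest without DKO replicate 1. The causes were not tested. Same-numbered libraries did not deviate together (correlations of 0.00 for Brd3 and 0.01 for H3K27ac over sites), so the number alone does not show a pairing. With the replicate number as a block, 994 Brd3 sites were lower, 1046 H3K27ac sites lower and 360 higher.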
